A study of Homo sapiens with 6 samples.

Results

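The mitochondrial ribosomal protein genes were taken as the protein-coding genes whose symbol is MRPL followed by a number, or MRPS followed by a number and, for some, a letter from A to C. By this rule 78 of the 58174 genes in the deposited tables were members, 49 named for the large subunit (MRPL) and 29 named for the small subunit (MRPS). The mitochondrial ribosome translates the few proteins encoded by mitochondrial DNA, all of them parts of the respiratory chain and ATP synthase. Its ribosomal RNAs are transcribed inside the organelle, whereas all of its proteins are encoded in the nucleus, made in the cytosol and imported. The large subunit forms peptide bonds and holds the exit tunnel and the stalk that recruits translation factors, and the small subunit binds the mRNA and decodes it.

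The libraries were made from LN-229, an established human glioblastoma cell line. They comprised 3 control-NC libraries and 3 sh-JMJD1C libraries, where sh usually stands for short hairpin RNA and the target is JMJD1C, which encodes a Jumonji domain protein of the histone demethylase family. Per the series' design text the RNA was enriched for nuclei and sequenced as total RNA after ribosomal RNA depletion, so a member's reads can come from its pre-mRNA as well as its mRNA. The labels do not state whether libraries of a group were separate cultures or how long cells were treated, and all p-values therefore measure only the spread between these libraries.

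The libraries held between 544442 reads (control 1) and 2960454 reads (control 3), recovered from the deposited FPKM as described under processing. Levels are given as scaled RPM, which are library-normalized reads (RPM) after median-ratio scaling of the libraries to each other. JMJD1C itself stood at 168, 93.1 and 171 scaled RPM across control 1 to 3 and at 43.1, 11 and 28.1 across sh-JMJD1C 1 to 3, with a log2 fold change of -2.49 ± 0.51 (SE, limma-voom adjusted p = 0.0253). The groups did not overlap, so the targeted transcript was lower in every library carrying its label. In the FPKM fit described below its adjusted p by limma was 0.118, and leaving out single libraries on reads gave up to 0.115 by limma-voom. The JMJD1C transcript is long and low in GC (8666 nucleotides, 39.9%). With the length trend of the libraries removed, as described below, its log2 fold change was -1.75 (limma-voom adjusted p = 0.0463). With the length and GC trends removed it was -1.20 (limma-voom adjusted p = 0.0574). Of the glioblastoma line markers, VIM averaged 715 ± 95.5 in the controls and EGFR 1136 ± 37.2 (SD, n = 3). VIM stood at 793 ± 102 with sh-JMJD1C, whereas EGFR stood at 753, 298 and 268, below every control (log2 fold change -1.54, limma-voom adjusted p = 0.0587). With the length and GC trends removed that of EGFR was -0.67 (limma-voom adjusted p = 0.214). The markers NES, GFAP and SOX2 had only 35, 15 and 2 reads over all libraries. The markers of other cells were near 0, with 1 read for PTPRC (immune cells), 16 for RBFOX3 (neurons) and none for PECAM1 (endothelium) and MOG (oligodendrocytes). The libraries also differed in make-up. Transcripts of RN7SL, the signal recognition particle RNA, took 15.7% and 18.5% of reads in sh-JMJD1C 2 and 3 but 0.378% to 1.77% in the controls and in sh-JMJD1C 1. Mitochondrially encoded transcripts took 12.6% in sh-JMJD1C 1, 1.33% and 1.7% in sh-JMJD1C 2 and 3, and 2.93% to 8.7% in the controls. MALAT1, a noncoding RNA retained in the nucleus, took 1.73%, 1.25% and 2.4% of reads across control 1 to 3 and 0.292%, 0.0915% and 0.185% across sh-JMJD1C 1 to 3, without overlap. One noncoding gene, ENSG00000281181, held 25% of the reads of control 1. The part of this make-up in the differences below was not tested.

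Promoter sequences are shown for 3 of the 5 members whose level passed the test in the fit on reads, those in which a motif of a factor known to act on mitochondrial genes was found. Each runs from 170 bases before to 30 bases after the RefSeq start, 5′ to 3′ on the gene's strand (GRCh38.p14), with the matched motif in capitals. MRPL54 (chr19:3762512-3762711, plus strand) and MRPL28 (chr16:370509-370708, minus strand) hold CTTCCGG, the reverse complement of the ETS/GABP motif CCGGAAG. MRPS7 (chr17:75261709-75261908, plus strand) holds the YY1 motif AAGATGGC close after its start.
MRPL54: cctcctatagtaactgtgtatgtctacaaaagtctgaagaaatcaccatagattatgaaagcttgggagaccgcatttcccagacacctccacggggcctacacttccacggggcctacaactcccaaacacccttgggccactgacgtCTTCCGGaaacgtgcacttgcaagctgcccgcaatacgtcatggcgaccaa
MRPL28: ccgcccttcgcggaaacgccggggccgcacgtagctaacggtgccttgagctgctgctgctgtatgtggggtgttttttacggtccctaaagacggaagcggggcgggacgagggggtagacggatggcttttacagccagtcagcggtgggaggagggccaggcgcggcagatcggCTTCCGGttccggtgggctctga
MRPS7: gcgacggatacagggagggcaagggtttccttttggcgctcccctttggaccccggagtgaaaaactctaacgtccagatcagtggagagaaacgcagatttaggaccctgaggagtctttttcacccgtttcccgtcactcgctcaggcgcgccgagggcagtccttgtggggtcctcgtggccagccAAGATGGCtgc

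Over the windows of 300 bases in the RefSeq table, 69 of the 78 members were found, with 85 windows. Letters were searched on both strands. The ETS/GABP motif was in 33 of the 85 member windows (38.8%) and in 10.3% of all 35116 windows. The YY1 motif was in 23 (27.1%), against 2.89% of all windows. The NRF1 motif GCGCATGCG was in 3 (3.53%, against 1.92%), and the E-box CACGTG, bound by MYC among others, in 9 (10.6%, against 7.26%). Among 12296 windows of the other protein-coding genes with enough reads to be tested, the shares were 17.9% for ETS/GABP, 5.08% for YY1, 3.24% for NRF1 and 9.7% for the E-box. By gene, 30 of the 69 members held the ETS/GABP motif and 21 the YY1 motif. The median log2 fold change was 0.93 in the 28 tested members with the ETS/GABP motif and 1.04 in the 35 without, and 0.60 in the 18 with the YY1 motif against 1.04 in the 45 without. The windows of MRPL11 and MRPL41, the other two members that passed the test, held none of the 4 motifs. These matches describe letters in the windows and not occupied sites.

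The members as a group stood higher with sh-JMJD1C, mostly through libraries 2 and 3. Their summed level was 2523, 2411 and 2229 scaled RPM across control 1 to 3 and 2896, 6903 and 6372 across sh-JMJD1C 1 to 3, which gives 2388 ± 148 against 5390 ± 2176 (SD, n = 3 each), a ratio of 2.26. In bulk libraries a change in all cells cannot be told apart from one in some of them. The groups did not overlap, but sh-JMJD1C 1 lay much nearer to the controls than to the other libraries of its own group. As a share of all reads, unscaled, the members took 0.217% (exact 95% interval 0.205% to 0.23%, counting error only) in control 1 and 0.308% (0.302% to 0.315%) in control 3. The share was 0.304% (0.296% to 0.313%) in sh-JMJD1C 1, within the range of the controls, and 0.525% (0.514% to 0.535%) and 0.546% (0.535% to 0.558%) in sh-JMJD1C 2 and 3. Per library, the median member stood 0.09, 0.07 and -0.02 log2 units from the mean of the controls across control 1 to 3, and 0.23, 1.26 and 1.50 across sh-JMJD1C 1 to 3.

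**Figure D1:**
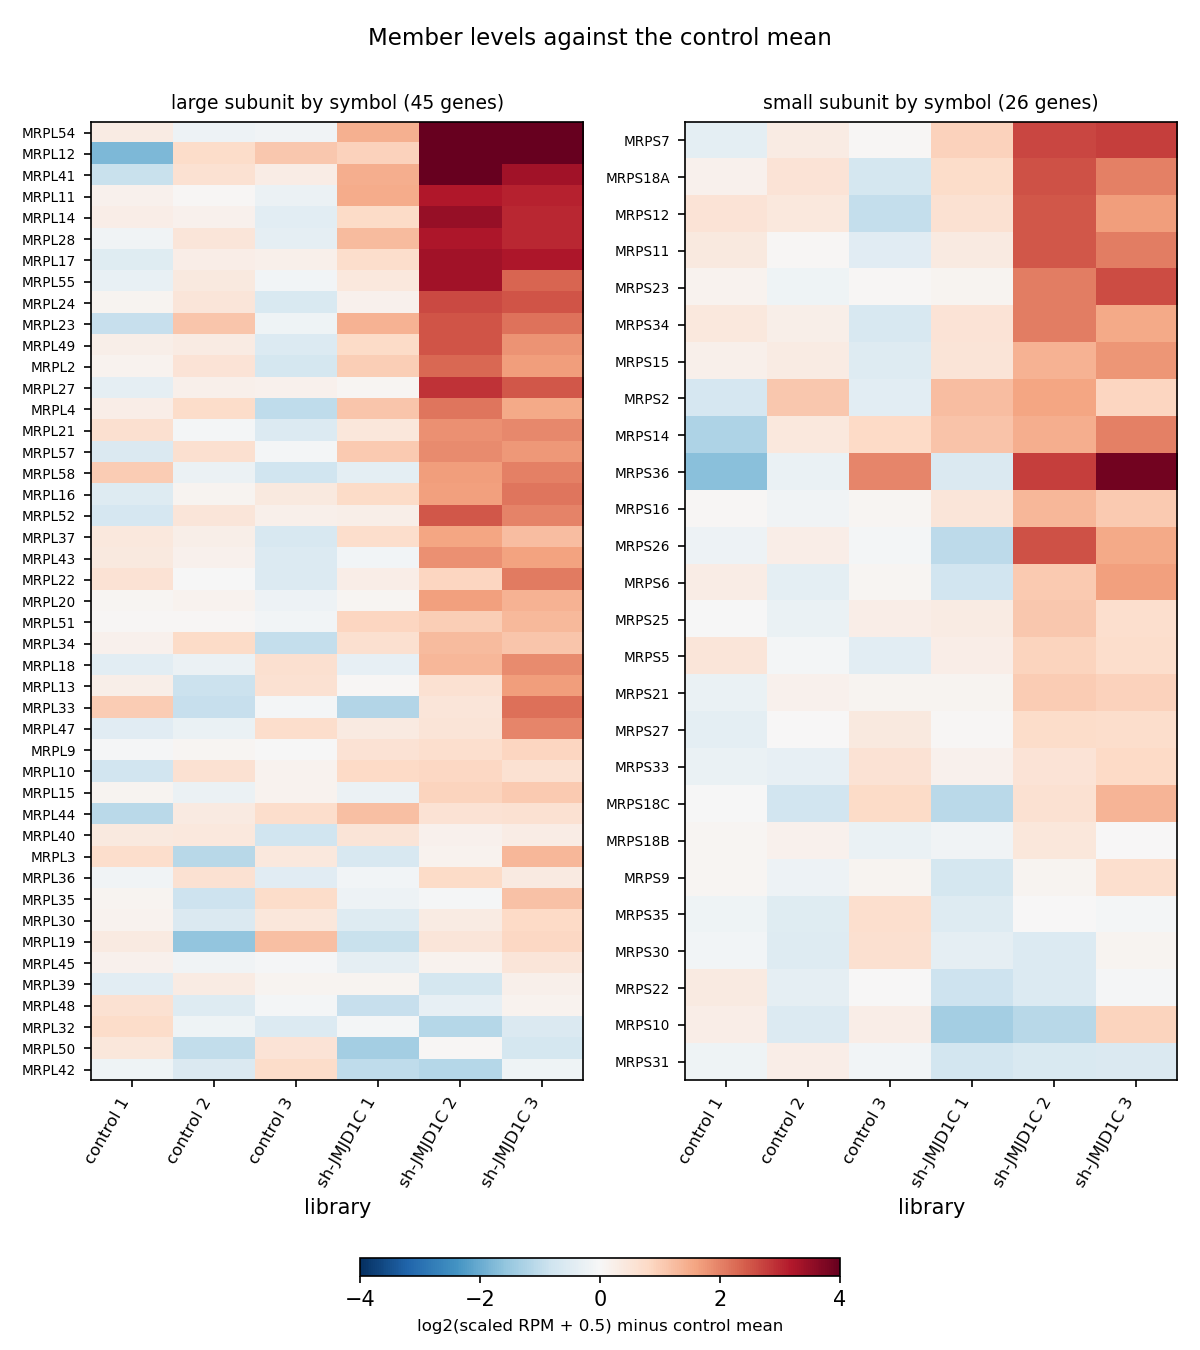
Level of each of the 71 members with enough reads to be tested, as log2(scaled RPM + 0.5) minus the mean of the 3 controls (colour, limited to 4 either way), by library (columns) and gene (rows, ordered by log2 fold change), for the large and the small subunit by symbol. The columns of sh-JMJD1C 2 and 3 are red over most rows, while sh-JMJD1C 1, whose median is 0.23, resembles the controls.

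Single members rarely passed a test over the whole table. The FPKM fit, limma on log2(scaled FPKM + 0.5), called none of the 75 members whose mean FPKM reached 0.5. Of these members 27 had an unadjusted p under 0.05, as did 2690 of the 11188 genes also tested in the fit on reads. That fit called only 0.185% of the 18383 genes tested in either direction. The fit on recovered reads, limma-voom on genes with at least 60 reads, called 5 members higher and none lower of the 71 tested. Of these members 31 had an unadjusted p under 0.05, as did 3657 of all 11877 genes tested. In that fit 3.71% of all 11877 genes were called higher and 1.81% lower. The 7 members below the read minimum were MRPL1, MRPL38, MRPL46, MRPL53, MRPS17, MRPS24 and MRPS28, with 13 to 59 reads each over the 6 libraries.

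The median log2 fold change of the 71 tested members was 0.95, beside -0.08 over all genes tested and -0.11 over protein-coding genes. Of these members 61 lay above 0 and 10 below. All 3 sh-JMJD1C libraries were above all 3 controls for 24 members, where 17.3% of all genes did the same, and below all 3 for 1 member, MRPS31, where 17.2% did. In the other 46 members the groups overlapped. With library totals in place of median-ratio scaling, the median of all genes moved by -0.44, and 50 members lay above 0 and 21 below. Relative to the median of all genes, 61 members were higher under either scaling.

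All 5 called members rose. MRPL54 is a large subunit protein found in mitochondria and not in bacteria (ENSG00000183617, hg38 chromosome 19, 3762664 to 3768575, plus strand). It had 10.7, 7.32 and 7.57 scaled RPM across control 1 to 3 and 23.3, 186 and 139 across sh-JMJD1C 1 to 3. Every sh-JMJD1C library was above every control, and libraries 2 and 3 far above library 1. The log2 fold change was 3.40 ± 0.79 (SE), a fold of 10.6, with an adjusted p of 0.0354 by limma-voom.

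MRPL11, which sits at the base of the stalk (ENSG00000174547, chromosome 11, 66435075 to 66466738, minus strand), had 49, 44.7 and 36.7 scaled RPM in the controls and 121, 402 and 369 with sh-JMJD1C. The groups did not overlap, and the spread among the controls was small. Its log2 fold change was 2.63 ± 0.49 (limma-voom adjusted p = 0.0197). MRPL28, a large subunit protein with a bacterial counterpart (ENSG00000086504, chromosome 16, 366969 to 371289, minus strand), went from 27.7, 43.1 and 23.9 to 74.4, 289 and 249, a log2 fold change of 2.49 ± 0.54 (limma-voom adjusted p = 0.0298). MRPL41, a large subunit protein without a bacterial counterpart (ENSG00000182154, chromosome 9, 137551199 to 137552555, plus strand), was low in the controls at 4.27, 13 and 10.3 and reached 23.8, 143 and 89.9, a log2 fold change of 2.66 ± 0.69 (limma-voom adjusted p = 0.0479). Only 2 reads stood behind its value in control 1.

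The single called member of the small subunit was MRPS7, a protein of the subunit's head (ENSG00000125445, chromosome 17, 75261674 to 75266373, plus strand). Its level was 23.5, 38.2 and 32 in the controls and 57.9, 199 and 212 with sh-JMJD1C, again without overlap. The log2 fold change was 2.05 ± 0.52 (limma-voom adjusted p = 0.0451). Exons of MRPL11 and MRPS7 overlap those of neighbours on the opposite strand (PELI3 for the first, GGA3 and MIF4GD for the second) and exons of MRPL28 overlap TMEM8A on the same strand. Of the member's exon bases, 4.69% were shared with PELI3, 6.41% with GGA3, 4.39% with MIF4GD and 7.33% with TMEM8A. Use of strand in counting is not given in the sources used here.

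All 5 calls rested on particular libraries. Each was lost when control 1, control 3, sh-JMJD1C 2 or sh-JMJD1C 3 was left out, with limma-voom adjusted p from 0.0581 to 0.186. Each held without control 2 or without sh-JMJD1C 1. Without sh-JMJD1C 1 the count of members called higher rose to 35, where 14.5% of all genes were called higher. Without both libraries numbered 1 it was 22, where 7.39% of genes were, and the 5 members were among them in both cases. Over protein-coding genes alone the FPKM fit called 11 members higher, where it called 5.34% of the genes tested.

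**Figure D2:**
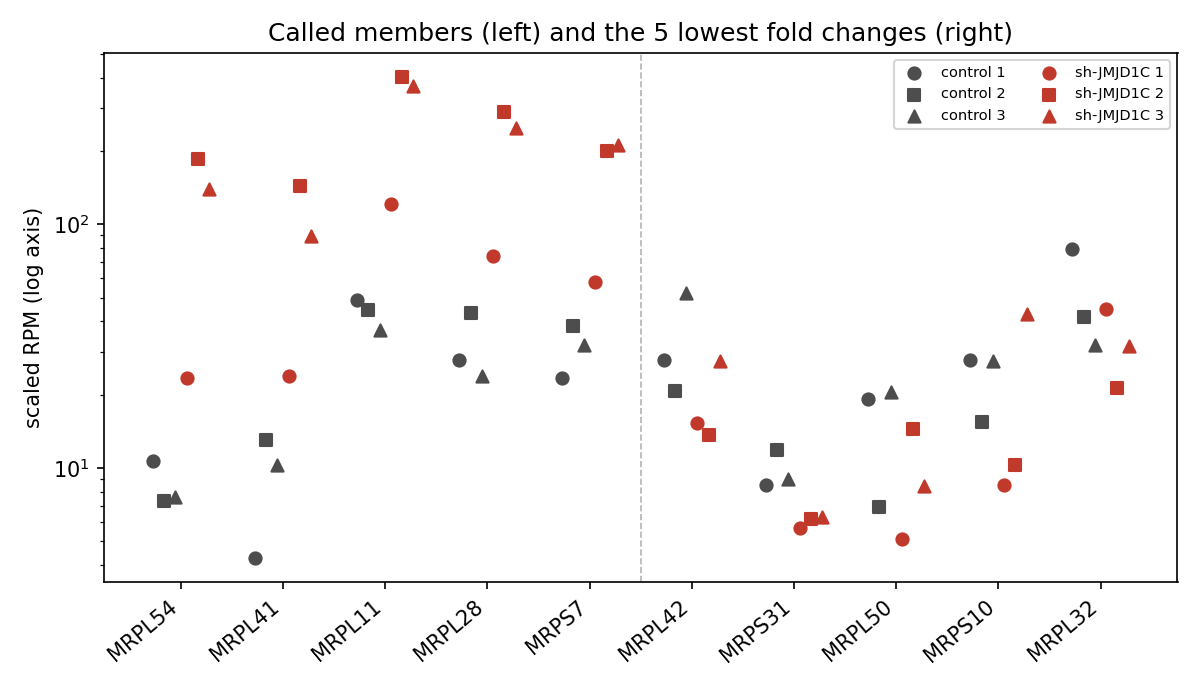
Level of the 5 called members (left of the dashed line) and of the 5 members with the lowest log2 fold change (right), in scaled RPM on a log axis, 1 point per library (grey for control, red for sh-JMJD1C, circle, square and triangle for libraries 1 to 3). On the left every red point lies above every grey one, and sh-JMJD1C 1 is the lowest red point. On the right only MRPS31 has groups that do not overlap.

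At the other end, none of the 5 members with the lowest fold changes passed the test by limma-voom. MRPL42, a large subunit protein, had a log2 fold change of -0.85 ± 0.50, with 27.7, 20.7 and 52.3 scaled RPM in the controls and 15.3, 13.7 and 27.4 with sh-JMJD1C. MRPS31, of the small subunit, was at 8.53, 11.8 and 9.04 against 5.68, 6.17 and 6.32 (log2 fold change -0.69 ± 0.52). MRPL50, MRPS10 and MRPL32 had log2 fold changes of -0.64, -0.52 and -0.46. The groups of these 3 and of MRPL42 overlapped, and with the length and GC trends removed MRPL42, MRPL50 and MRPL32 were at 0 or above. MRPL32 is known as a protein that must be cut by a mitochondrial protease before it joins the ribosome, and its level ran from 32 to 78.9 in the controls and from 21.3 to 44.8 with sh-JMJD1C.

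Of 3 groups of large subunit members by position, the stalk had the highest median fold change. This grouping, and that by bacterial counterpart, was made after values were seen and carries no test. Of the 5 stalk proteins 4 were tested, with a median log2 fold change of 2.65. Of these 4, 2 were called (MRPL11 and MRPL54), where 3.71% of all genes were called higher. The untested one, MRPL53, had 22 reads in all and a log2 fold change of -0.13 in the FPKM fit. The tested stalk members had a median GC of 56.5%, against 48.5% for all tested members. With the length and GC trends removed the stalk median was 1.59, beside 0.51 for all tested members. In that fit 3 of the 4 were above 0 and MRPL10 was at -0.12. Only 1 was called, MRPL11, where 3.65% of all genes were called higher. The stalk proteins summed to 78.9, 107 and 87 scaled RPM in the controls and to 207, 704 and 591 with sh-JMJD1C. MRPL12, the stalk protein that binds elongation factors, had a log2 fold change of 2.67 ± 1.28 (limma-voom adjusted p = 0.179), from 0, 2.44 and 3.18 to 2.84, 54.2 and 32.3. No read was found in control 1, where 0 reads allow up to 6.40 scaled RPM, and only 149 reads in all were assigned to MRPL12, of whose exon bases 68.2% are shared with another gene on the same strand. MRPL10, the protein that anchors MRPL12, had a log2 fold change of 0.61 ± 0.41 (limma-voom adjusted p = 0.319), with 19.2, 50.8 and 36.7 scaled RPM in the controls and 57.9, 59.6 and 50.6 with sh-JMJD1C.

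The 6 members at the rim of the exit tunnel, where the new protein leaves the ribosome, had a median log2 fold change of 1.50, and none was called. MRPL17 had the highest of them, 2.34 ± 0.66 (limma-voom adjusted p = 0.0548), with 21.3, 35.8 and 34.5 scaled RPM in the controls and 48.3, 311 and 286 with sh-JMJD1C. MRPL45, which contacts the inner membrane, had one of 0.12, with 34.2 to 42.7 in the controls and 29.5 to 53.4 with sh-JMJD1C. In the central protuberance, on the face toward the small subunit, 7 of 9 members were tested. None was called, and the median was 0.80. MRPL14, a conserved protein of the subunit interface, stood at 21.3, 19.9 and 13 against 30.1, 202 and 148 (log2 fold change 2.52 ± 0.68, limma-voom adjusted p = 0.0507). The 42 tested members with a bacterial counterpart had a median of 1.05 with 3 called. The 29 tested members without one had a median of 0.69 with 2 called, in a fit that called 3.71% of all genes higher.

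The large subunit as a whole stood higher against the controls than the small. Its members summed to 1439, 1347 and 1175 scaled RPM across control 1 to 3 and to 1700, 4406 and 4111 across sh-JMJD1C 1 to 3, a ratio of group means of 2.58. The small subunit members summed to 1083, 1064 and 1054 in the controls and to 1196, 2497 and 2261 with sh-JMJD1C, a ratio of 1.86. The summed level of the large over the small subunit was therefore 1.33, 1.27 and 1.11 in the controls and 1.42, 1.76 and 1.82 with sh-JMJD1C. This ratio does not depend on how libraries are scaled to each other, and its groups did not overlap, although sh-JMJD1C 1 and control 1 were close.

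**Figure D3:**
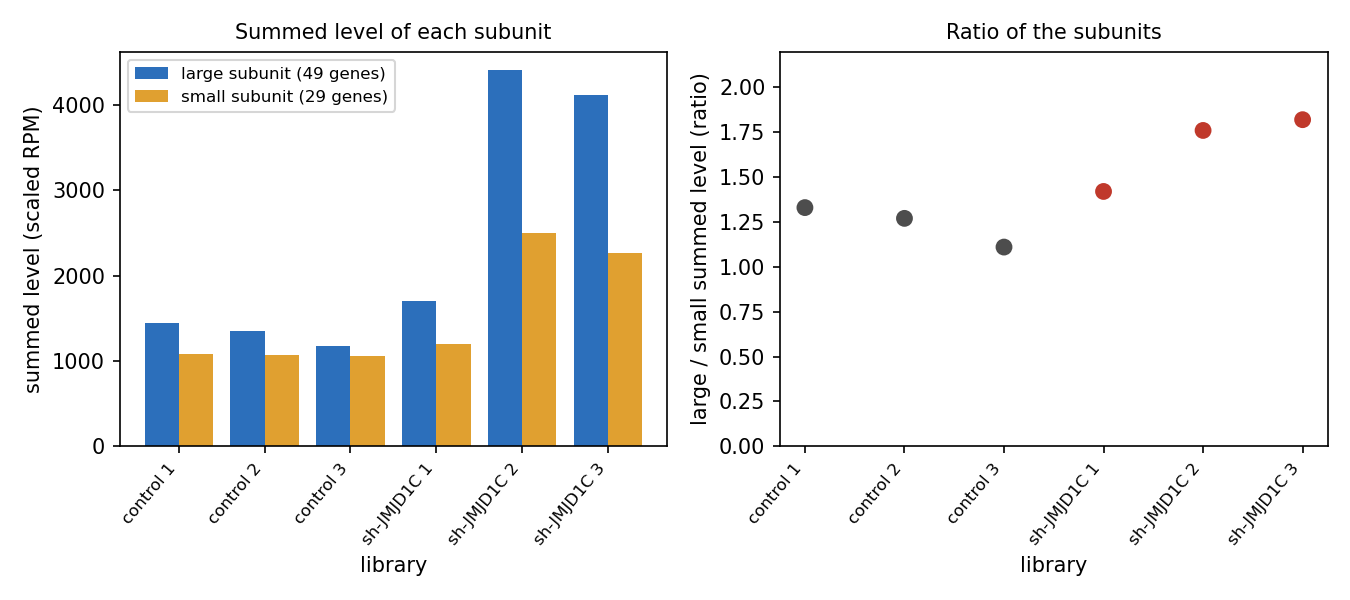
Left: summed level of the 49 large and 29 small subunit members by symbol (bars, scaled RPM) in each library. Right: the large over the small sum, which is 1.11 to 1.33 in the controls (grey) and 1.42 to 1.82 with sh-JMJD1C (red).

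Gene by gene the subunits were less distinct. Of 45 tested large subunit members 4 were called higher, the median log2 fold change was 1.05, and in 16 all sh-JMJD1C libraries were above all controls. Of 26 tested small subunit members 1 was called, the median was 0.69, and 8 were above all controls. Of all genes tested, 3.71% were called higher and 17.3% were above all controls. The medians differed by 0.36. The difference between the subunit medians within a library was 0.09, 0.18 and -0.15 in the controls and 0.22, 0.26 and 0.70 with sh-JMJD1C, so that all 3 sh-JMJD1C libraries lay above the controls and 2 of them only just. Sorting by place in the ribosome instead of by symbol, with MRPS18A and MRPS30 in the large subunit and MRPS36 left out, gave the same difference of 0.36. MRPS36 is now regarded as a part of the 2-oxoglutarate dehydrogenase complex.

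Of those proteins, MRPS18A had a log2 fold change of 1.83 ± 0.55 (limma-voom adjusted p = 0.0628), with 25.6, 33.7 and 13.7 scaled RPM in the controls and 38, 135 and 93.4 with sh-JMJD1C. Its groups did not overlap. Its paralogs MRPS18B and MRPS18C had log2 fold changes of 0.13 ± 0.37 and 0.15 ± 0.74, with overlapping groups. Scaling by library totals turned these to -0.27 and -0.24, and quantile normalization turned that of MRPS18B to -0.05. The differences among the paralogs were not tested. Of exon bases, 47% of MRPS18A are shared with RSPH9 and 40.2% of MRPS18C with ABRAXAS1, both on the opposite strand. MRPS30 was at 70.4, 52.5 and 118 against 58.5, 51.4 and 81.5 (log2 fold change -0.29 ± 0.41). MRPS36 had no read in control 1 and only 1 in sh-JMJD1C 1, and its log2 fold change of 1.04 had an SE of 1.32. MRPL58, a peptidyl-tRNA hydrolase that became a ribosomal protein, had a log2 fold change of 1.36 ± 0.65 (limma-voom adjusted p = 0.177), with 44.8 in control 1 above the 16.5 of sh-JMJD1C 1.

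Per kilobase of the longest annotated transcript, and averaged over the 6 libraries, the most abundant large subunit members were MRPL51 at 103, MRPL54 at 99.7 and MRPL37 at 93.7 scaled RPM. Those of the small subunit were MRPS34 at 141, MRPS7 at 54.7 and MRPS21 at 54.1. MRPL54 and MRPS7 held these places through the sh-JMJD1C libraries. In the controls alone MRPL54 had 13.6 scaled RPM per kilobase and MRPS7 18.2, and the highest were MRPL51 at 66.6, MRPL34 at 59.3 and MRPL37 at 58.3, with MRPS34 at 76.6, MRPS21 at 40.8 and MRPS18B at 40.2 in the small subunit. The log2 fold change was 1.05 ± 0.35 for MRPL51 (82.1 ± 5.54 scaled RPM in the controls and 171 ± 27.7 with sh-JMJD1C, SD, n = 3) and 1.21 ± 0.41 for MRPL37. It was 1.41 ± 0.47 for MRPS34 and 0.64 ± 0.39 for MRPS21. None of these 4 was called by limma-voom. MRPL51 had one of the tightest profiles, at 149, 163 and 202 with sh-JMJD1C, so that here sh-JMJD1C 1 was not apart from the others. However, 31.3% of the exon bases of MRPL51 are shared with NCAPD2 on the opposite strand, which had 3533 reads beside 1348 for MRPL51.

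A property that the members' fold changes followed was the base composition of their transcripts. Across the 71 tested members the log2 fold change correlated with the GC content of the longest transcript (Pearson r = 0.65, Spearman rho = 0.66) and, inversely, with its log2 length (r = -0.37, rho = -0.31). Across 10211 protein-coding genes the same correlations were r = 0.54 and r = -0.50. Genes of the same libraries share depth and make-up and are not independent replicates, so these are descriptions. The 24 members of lowest GC (33.5% to 44.2%) had a median log2 fold change of 0.24, with none called and 1 above all controls. The 23 in the middle (44.6% to 51.8%) had a median of 0.95, with 1 called and 9 above all controls, and the 24 of highest GC (52.2% to 71.9%) one of 1.71, with 4 called and 14 above all controls. Over all genes tested, 3.71% were called higher and 17.3% were above all controls. The median member's longest transcript had 1717 nucleotides, against 3862 for protein-coding genes of the fit.

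**Figure D4:**
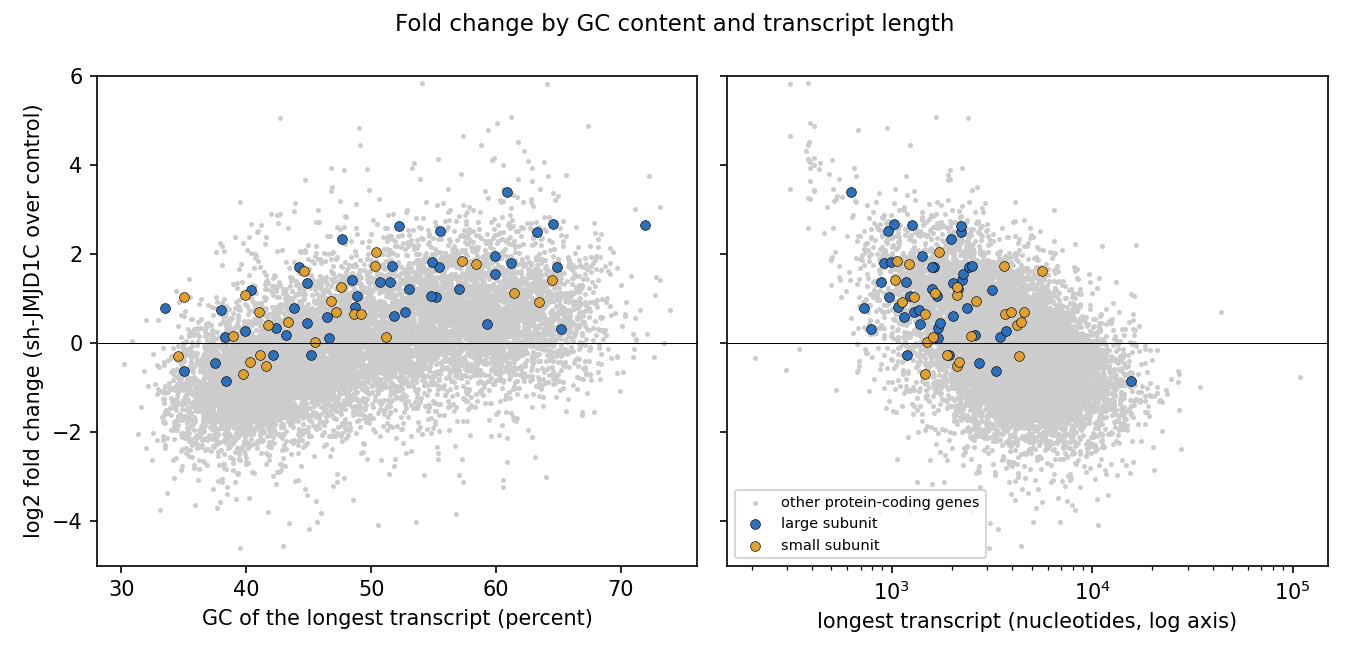
Log2 fold change by limma-voom on reads against the GC content of the longest transcript (left) and its length in nucleotides on a log axis (right), for large subunit members (blue), small subunit members (orange) and other protein-coding genes (grey). Members climb with GC (r = 0.65) inside a cloud of genes that does the same (r = 0.54), and lie toward its short end.

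Removing each library's trend of level with transcript length lowered the members' median log2 fold change from 0.95 to 0.51, and 2 members were called higher (MRPL11 and MRPL28), where 2.34% of all genes were. Removing the trends with length and GC together gave a median of 0.51 and 1 call, MRPL11 (log2 fold change 1.97, limma-voom adjusted p = 0.0237), where 3.65% of all genes were called. The share of the 71 members called was 2.82% in the first of these fits, near its background, and below the background in the second. The order of the subunits was not kept. With the length trend removed the medians were 0.46 for the large and 0.60 for the small subunit, and with both trends removed 0.39 and 0.59. The members stayed above the genes at large, whose medians in these fits were -0.02 and -0.01. A trend removed in this way also takes away any response that itself follows length or GC, and both cannot be told apart here.

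**Figure D5:**
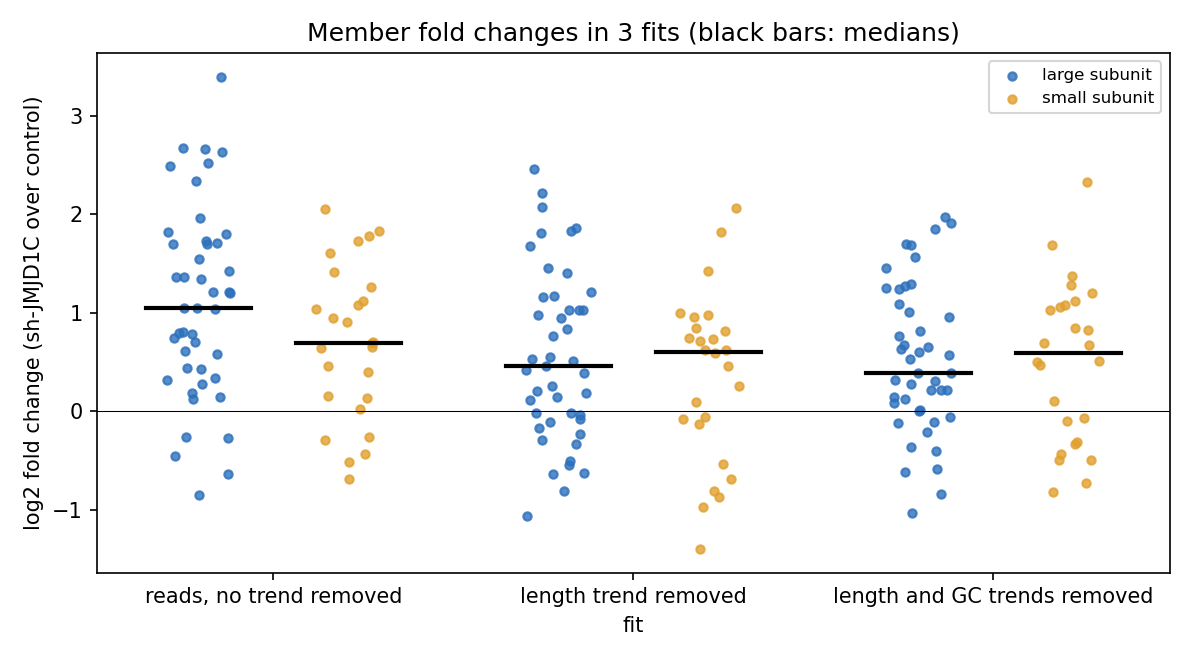
Log2 fold change of each tested member (points, spread sideways at random) in the fit on reads and after removal of the length trend, or of the length and GC trends, by subunit. Black bars are medians, which go from 1.05 to 0.46 and 0.39 for the large subunit and from 0.69 to 0.60 and 0.59 for the small.

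Other parts of the mitochondrial translation system did not all stand with the members. Counts of calls here stand beside 3.71% of all genes called higher and 1.81% called lower. Of 5 mitoribosomal proteins with other symbols 1 was called higher, AURKAIP1, a small subunit protein, with 27.7, 32.5 and 21 scaled RPM in the controls and 53.4, 297 and 199 with sh-JMJD1C (log2 fold change 2.47, limma-voom adjusted p = 0.0391). Of 25 tested assembly and rRNA modification factors none was called, and the median was 0.47. Of 16 mitochondrial translation factors 1 was called higher, and the median was -0.39. The called one was TUFM, the elongation factor that delivers tRNAs to the ribosome, at 154, 175 and 100.4 against 338, 751 and 495 (log2 fold change 1.85, limma-voom adjusted p = 0.0323). The initiation factors MTIF2 and MTIF3, not called, had log2 fold changes of -1.23 and -0.96. Of 5 genes of mitochondrial transcription none was called (median -0.84). POLRMT, the RNA polymerase, was at 1.57 and TFAM, which packages the mitochondrial genome and acts in its transcription, at -1.25. The tested translation factors had a median GC of 42.6% and longest transcript of 2852 nucleotides, and the transcription genes 38.4% and 3835. The members had 48.5% and 1717. With the length and GC trends removed the medians were -0.25 and -0.22 for these lists, 0.14 for assembly factors and 0.51 for the members. In that fit POLRMT was called higher (log2 fold change 1.23, limma-voom adjusted p = 0.0408), where 3.65% of all genes were. What part GC and length had in these differences was not tested.

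Among 9 nuclear regulators of mitochondrial genes PPARGC1A was called lower, where 1.81% of all genes tested were. PPARGC1A encodes the coactivator PGC-1α, a driver of mitochondrial biogenesis. Its level was 64, 48.4 and 43 scaled RPM in the controls and 23.8, 6.86 and 9.13 with sh-JMJD1C, without overlap and opposite to the members (log2 fold change -2.04, limma-voom adjusted p = 0.0411). The calls of AURKAIP1, TUFM and PPARGC1A were all lost in the FPKM fit (limma adjusted p of 0.149, 0.132 and 0.15). They were also lost with the length trend removed (0.064, 0.0542 and 0.08 by limma-voom) and with the length and GC trends removed (0.135, 0.0738 and 0.225). Each held in only 2 of the 6 fits that left out a single library, with adjusted p up to 0.161, 0.141 and 0.191, and without both libraries numbered 1 that of PPARGC1A was 0.0502. NRF1 had a log2 fold change of 0.59, GABPA, the DNA-binding subunit of GABP, one of -0.95, YY1 one of -0.86 and MYC one of 0.48, none of them called. The ribosomal RNAs of the mitochondrial ribosome, as left by depletion, summed to 54.2 ± 33.1 scaled RPM in the controls and 52.2 ± 32.3 with sh-JMJD1C (SD, n = 3 each). Within this sum MT-RNR1 averaged 20.9 against 8.77 (log2 fold change -0.78 ± 0.70, SE). MT-RNR2 averaged 33.3 against 43.4 (0.73 ± 0.62), and neither was called.

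Comparable nuclear-encoded families also had medians above 0. The 79 cytosolic ribosomal protein genes had a median log2 fold change of 0.94 with 1 called (RPS9), and the 77 tested nuclear-encoded respiratory chain genes had a median of 1.33 with 14 called, all higher, in a fit that called 3.71% of all genes higher. The FPKM fit by limma called none of either family, with an unadjusted p under 0.05 for 20 of 79 cytosolic and 39 of 78 respiratory chain genes. The same held for 2690 of the 11188 genes tested in both fits. With the length trend removed 4 respiratory chain genes were called higher, where 2.34% of all genes were. With the length and GC trends removed 4 were as well, where 3.65% of all genes were. In each of these fits no cytosolic ribosomal protein gene was called higher and 1 was called lower, where 128 and 368 of all 11877 genes were. The library medians of both families had the same order across sh-JMJD1C 1 to 3. They were -0.04, 1.34 and 1.48 for cytosolic ribosomal proteins and 0.56, 1.64 and 1.68 for the respiratory chain. Whether the members differ from these families was not tested.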

How the data were processed

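RNA-seq values of 6 libraries were analysed, grouped by their titles into 3 control-NC and 3 sh-JMJD1C. The authors deposited FPKM per gene, in columns for rising shares of each library's reads per the file headers, and the last column, the full library, was used. The submitters' processing notes list Bowtie 0.12.2 and hg38 without a role. Neither the counting tool nor strand use is given in the sources used here. Symbols, biotypes, lengths and GC came from GENCODE release 29.

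Whole reads were recovered from the FPKM. For 93.7% of genes above 0 the length divided by was the sum of the gene's annotated transcript lengths, and 100.0% of values under 1000 reads were whole within 0.001 reads. The library totals were 544442, 2004255 and 2960454 reads (control 1 to 3) and 1676755, 1919675 and 1660561 (sh-JMJD1C 1 to 3). Finding 0 reads is compatible with up to 3, which is 6.40, 1.22 and 0.73 scaled RPM for the controls, then 1.70, 2.06 and 2.11 with sh-JMJD1C. Such floors and the exact intervals cover counting error only.

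The main fit was limma 3.58.1 (R 4.3.3, trend option) on log2(scaled FPKM + 0.5) over genes whose mean FPKM reached 0.5. The added 0.5 pulls the fold changes of low genes toward 0, although some low members, such as MRPL12, had larger ones than on reads and others smaller ones. The second was limma-voom on reads, over genes with at least 60 reads, scaled by median ratios over genes averaging 20 reads or more. Fold changes and levels come from the second unless stated. Both were two-sided, on the group alone, with Benjamini-Hochberg adjustment over all genes at 0.05. Trends were removed with lowess (span 0.3). Alternatives changed the pseudocount, filter, scaling, gene set, weights and replicate block, or left out libraries.

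The members and lists were chosen with earlier results of these data known. Named are the called members, the 5 lowest, the 3 most abundant per length in each subunit, members fixed for their role (MRPL12, MRPL54, MRPL58, MRPS18A, MRPS18B, MRPS18C, MRPS30 and MRPS36) and called genes of the lists. Other names, among them the remaining stalk and exit tunnel members, MRPL14 and uncalled genes of the lists, were added after their values were seen. Of the 14 called respiratory chain genes the count alone is given.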

Additional observations from a re-analysis of the deposited data

How the results depend on the processing

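The members' median log2 fold change of 0.95 kept its sign under every alternative run, from 0.51 with length, or length and GC, trends removed to 1.33 without both libraries numbered 1, and from 0.72 to 1.28 when single libraries were left out. The FPKM fit's count of 0 called members became 11 over protein-coding genes only and was 0 to 11 when single libraries were left out (11 without sh-JMJD1C 1, where 2.75% of genes were called higher, otherwise 0). The 5 calls on reads became 2 with the length trend removed, 1 with the length and GC trends removed, 11 over protein-coding genes only (where 6.64% of genes were called higher) and 22 without both libraries numbered 1. They ranged from 0 to 35 when single libraries were left out (35 without sh-JMJD1C 1, 12 without control 2, where 5.25% of genes were called higher, otherwise 0). The difference between the medians of the large and small subunits, 0.36, was -0.14 with the length trend removed, -0.20 with the length and GC trends removed, 0.66 without both libraries numbered 1, and 0.18 to 0.70 when single libraries were left out (0.70 without control 2, 0.18 without control 3). The causes were not tested. With the replicate number as a block, the fit on reads called 40 of 71 members higher, where it called 19.8% of all genes higher, and the FPKM fit called 0. The numbers were not taken as pairing the libraries, since the titles state no pairing. The deviations of same-numbered libraries correlated at 0.075, 0.389 and 0.472. For sh-JMJD1C 2 the other controls gave -0.133 and -0.236, and for sh-JMJD1C 3 they gave 0.039 and -0.535, so both correlated best with their own number. In contrast, sh-JMJD1C 1 correlated best with control 2 (0.137). These values do not settle whether the libraries were paired. For the named genes, 214 values under alternatives kept their direction and side of the threshold, 38 no longer passed it, 12 newly passed it and 17 changed direction, all of them in 7 members that were not called. With the length and GC trends removed the log2 fold change became 0.76 for MRPL42, 0.14 for MRPL50, 0.67 for MRPS30, 0.00 for MRPL32 and -0.73 for MRPS18B. With the length trend removed it became 0.14 for MRPL42, -0.54 for MRPS18B and -0.13 for MRPS18C. MRPS10 came to 0.01 without both libraries numbered 1. With library totals MRPS18B came to -0.27 and MRPS18C to -0.24, and with quantile normalization MRPS18B came to -0.05. Leaving out single libraries gave -0.12 to 0.29 for MRPS18B (-0.12 without control 3, -0.00 without sh-JMJD1C 2) and -0.44 to 0.94 for MRPS18C (-0.44 without control 2, -0.07 without sh-JMJD1C 2, -0.40 without sh-JMJD1C 3). Control 1, with 544442 reads, limits members at a few RPM.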

Other observations

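Of the 78 members, 41 share annotated exon bases with another gene, and 34 have pseudogenes named after them. The 75 named pseudogenes held 202 reads over the 6 libraries, beside 18741 reads on the members they are named after, so few reads were assigned to the copies. How reads that match both were treated is not given in the sources used here. MRPL3 had the highest pseudogene count, 70 reads beside 987 on the gene.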
